A study of Capra hircus with 6 samples.

Results

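The G2/M and mitosis genes are a hand-written list of 48 genes whose products carry a cell from late G2 phase through chromosome segregation and cytokinesis. They were found by their gene name in the deposited table of goat intramuscular preadipocytes, which paired 37 of the 48 with a row among 27271 genes. The other 11 names (TACC3, CDC20, CDC25B, CCNB1, NUSAP1, GTSE1, BIRC5, UBE2C, MKI67, HMGB2 and CENPA) matched no row and were not analysed here. Of the 37 genes, 33 passed the filter on low counts and were tested among 6574 genes, and CCNA2, CDC25C, CKS2 and NUF2 did not pass it. The rule used gene names and no measured value, although the list was written with earlier results of these data known. The 33 tested genes are not all members, and a filter on abundance keeps a gene that is abundant in at least 1 group.

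RNA-seq libraries were compared between cells that received a control siRNA without a target (NC groups, n = 3) and cells transfected with an siRNA against LIPG, the gene of endothelial lipase (Si-LIPG groups, n = 3). Cells of both groups were wild type by their label, were grown from longissimus dorsi muscle of newborn Jianzhou goats, and were put in adipogenic induction medium with 50 μmol/L oleic acid for 48 h after transfection. The study asked how LIPG affects fat deposition and proliferation of these fat precursor cells. One siRNA sequence was used, no untransfected cells are among these samples, and the labels do not say which animal or culture each library came from, so that p values measure the spread between these libraries only.

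Entry into mitosis depends on the kinase CDK1 bound to cyclins A and B. The spindle, built by motors of the kinesin family and microtubule binding proteins, then attaches to chromosomes at their kinetochores, and the spindle checkpoint delays anaphase until every chromosome is attached. Condensins compact the chromosomes, and a ring of actin, myosin and anillin divides the cell at cytokinesis. The transcripts of most of these genes accumulate in G2 phase and mitosis, so that in a culture they are commonly read as a measure of dividing cells. In bulk RNA, more dividing cells and more RNA per dividing cell cannot be told apart.

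The libraries held 36451898 to 52638817 reads, of which 524776 to 703680 were counted on genes in the NC groups and 864882 to 1051230 in the Si-LIPG groups. As a share of all reads these were 0.997% to 1.53% (NC groups) and 1.8% to 2.88% (Si-LIPG groups), and NC 1 had the lowest share. Between 91.6% and 93.7% of reads lay on no annotated feature of the counting, and the libraries keep the strand of each read. ND6, which is encoded on the opposite mitochondrial strand from most mitochondrial genes, had 22.6 to 99.3 times as many reads per kilobase as the median mitochondrial protein gene of the remaining 12. A count could therefore hold reads from the strand opposite to its gene, and this was not tested, so that each level and fold change of a gene is that of the deposited count under this name. Fold changes are given as Si-LIPG over NC on the log2 scale, and their median over all tested genes was 0.16 after TMM normalization (edgeR's scaling, which takes most genes as unchanged), 0.74 when only library sizes were used and 1.58 on the scale of all reads. The silenced gene LIPG (ENSCHIG00000015994) had counts of 0, 2 and 0 in NC 1, NC 2 and NC 3, against 0, 2 and 2 in Si-LIPG 1, 2 and 3. None exceeded 3, the limit that a count of 0 allows, so that the labels could not be checked against LIPG. The direction of every fold change rests on the sample titles alone. All signs would turn if the libraries labelled NC and Si-LIPG were exchanged, a doubt that the deposited files do not settle. At the study's thresholds, DESeq2 gave 629 genes as higher and 1064 as lower in the libraries titled Si-LIPG. The paper instead gives 1064 genes as upregulated after the knockdown and fewer as downregulated. It also reports reduced proliferation after the knockdown, by EDU staining. Whether the titles were exchanged was not tested. The mesenchymal genes COL1A1 (1130 to 3440 FPKM) and COL1A2 (1530 to 5010 FPKM) were abundant in every library, whereas the preadipocyte marker DLK1 and the adipocyte lipase LPL were at 0 in all 6.

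None of the 33 tested genes had an adjusted p under 0.05 by edgeR's quasi-likelihood test, against 0.974% of all tested genes that were higher and 5.54% that were lower in the Si-LIPG groups. At an unadjusted p under 0.05 there were 5 members. All 5 also had a fold change over 1.5, the criterion of the study, and were higher in the Si-LIPG groups: HMMR, ANLN, CKS1B, BUB1B and CENPE. They were 15.2% of the tested members, beside 7.83% of all tested genes that met this criterion as higher and 12.9% as lower, and 0 members met it as lower, although NCAPD2 did so without Si-LIPG 1 and with a correction for gene length. Of the 31 members that passed the CPM minimum of the filter in at least 1 library of each group, which leaves out HMMR and DLGAP5, 4 met it as higher (12.9%), beside 5.89% of the 6247 tested genes of this kind. No member met the criterion when the share of counted reads, which differs between the groups, was a covariate. Of all 6574 tested genes, only 71 (1.08%) then met it as higher and 63 as lower. In that fit the log2 fold change was 2.36 for HMMR, 1.29 for CKS1B, 0.80 for BUB1B, 0.70 for ANLN and -0.39 for CENPE. With DESeq2, the tool named in the study's methods, ANLN and HMMR had an adjusted p under 0.05, a call that 1.2% of the genes given an adjusted p by DESeq2 received as higher.

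The log2 fold change was positive in 29 of the 33 tested members (87.9%) and in 58.4% of all tested genes. It was positive in 17 of the 33 when the share of counted reads was a covariate, and in all 33 with library sizes alone or on the scale of all reads. The median over all tested genes was 0.03 with the covariate, 0.74 with library sizes alone and 1.58 on the scale of all reads. These member counts thus move with the scaling of all genes, and the share of all tested genes above 0 was not counted in these fits. In the main fit the median log2 fold change of the members was 0.50, with values from -0.60 to 2.60, and 31.5% of all tested genes lay above this median. The members were thus higher by a median of 0.34 on the log2 scale relative to all tested genes. This difference was 0.17 without NC 1 and 0.01 when the share of reads counted on genes was entered as a covariate.

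**Figure D1:**
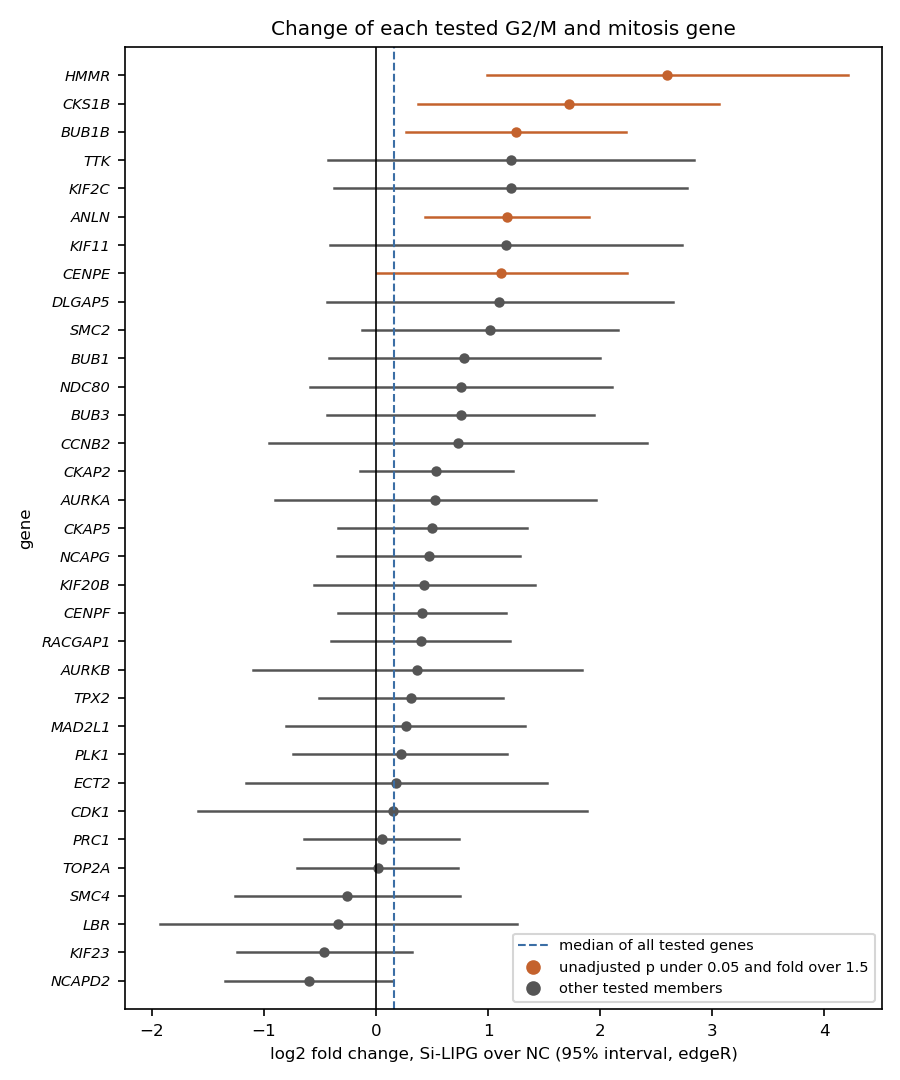
The log2 fold change (Si-LIPG over NC, horizontal axis) of each of the 33 tested genes (vertical axis) with its 95% interval from edgeR, and the median of all tested genes as a dashed line. HMMR lies at 2.60, the 5 genes at the criterion have intervals above 0, and the intervals of all other members include 0.

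Summed over each library, the 37 genes found had 447, 983 and 1296 reads in NC 1, NC 2 and NC 3, against 1893, 2964 and 3519 reads in Si-LIPG 1, 2 and 3. After TMM normalization the sums were 1449, 1771 and 2042 CPM in the NC groups and 2136, 2415 and 2570 CPM in the Si-LIPG groups. Every Si-LIPG library was above every NC library, although Si-LIPG 1 was only slightly above NC 3. The mean was 1750 ± 297 CPM in the NC groups and 2370 ± 220 CPM in the Si-LIPG groups (SD, n = 3), a ratio of 1.35, or 1.25 without NC 1. Counted in CPM of all reads, the sums were 19.9 ± 10.2 and 71.7 ± 29.3 (SD, n = 3), a ratio of 3.61. The libraries had the same order by their share of reads on genes as by these sums.

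**Figure D2:**
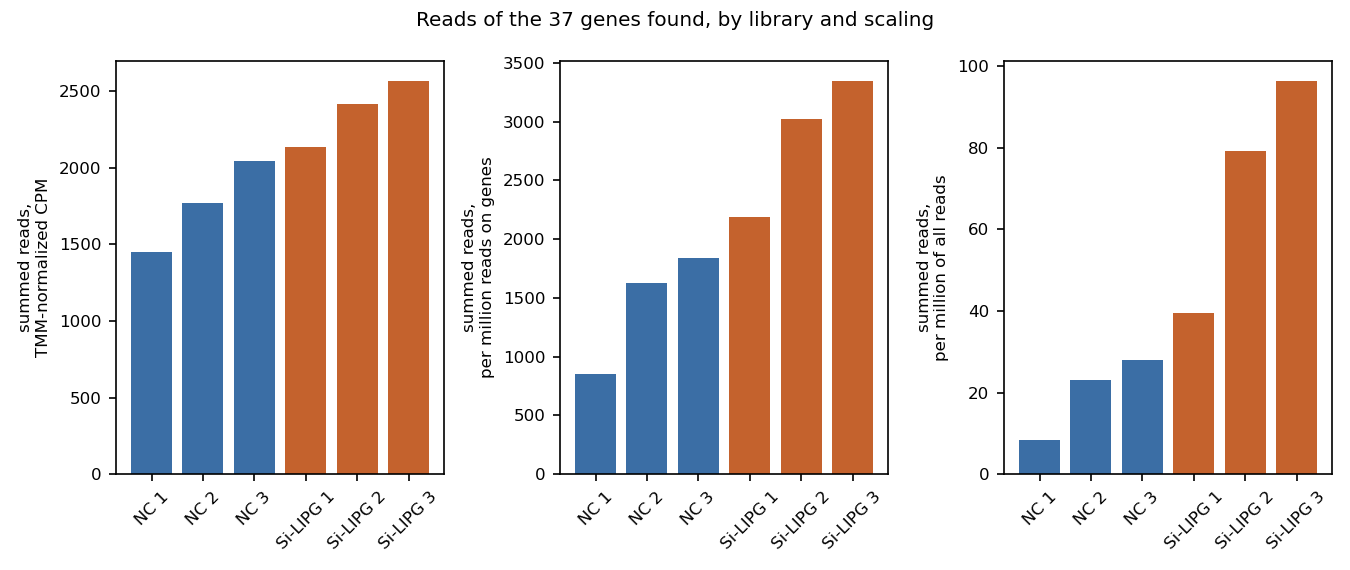
Reads of the 37 genes found, summed in each NC (blue) and Si-LIPG (orange) library, on 3 vertical scales: TMM-normalized CPM, CPM of the reads counted on genes and CPM of all reads. The order of the libraries is the same on all scales, from NC 1 (1449 CPM) to Si-LIPG 3 (2570 CPM), and the distance between the groups is largest on the scale of all reads, with a ratio of 3.61.

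NC 1 was the lowest library for 18 of the 33 tested members (54.5%), beside 35.5% of all tested genes. It had a count of 0 in 6 of the 37 genes found (CCNA2, CCNB2, TTK, KIF11, KIF2C and HMMR), NC 3 had one in CDC25C, and the Si-LIPG libraries had none. NC 1 also had the fewest genes with a count in the whole series. There were 8927 in NC 1, 10422 in NC 2 and 10603 in NC 3, against 11545 to 12344 in the Si-LIPG libraries. The median of the members minus the median of all tested genes was -0.71 in NC 1, 0.15 in NC 2 and 0.26 in NC 3 on the log2(CPM + 1) scale, against 0.22, 0.72 and 0.61 in Si-LIPG 1, 2 and 3. By this measure NC 2, NC 3 and Si-LIPG 1 were close to each other, NC 1 stood below them and Si-LIPG 2 and 3 above them. The highest value of a member was in Si-LIPG 2 or 3 for 21 of the 33, a count that was not made for all tested genes.

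**Figure D3:**
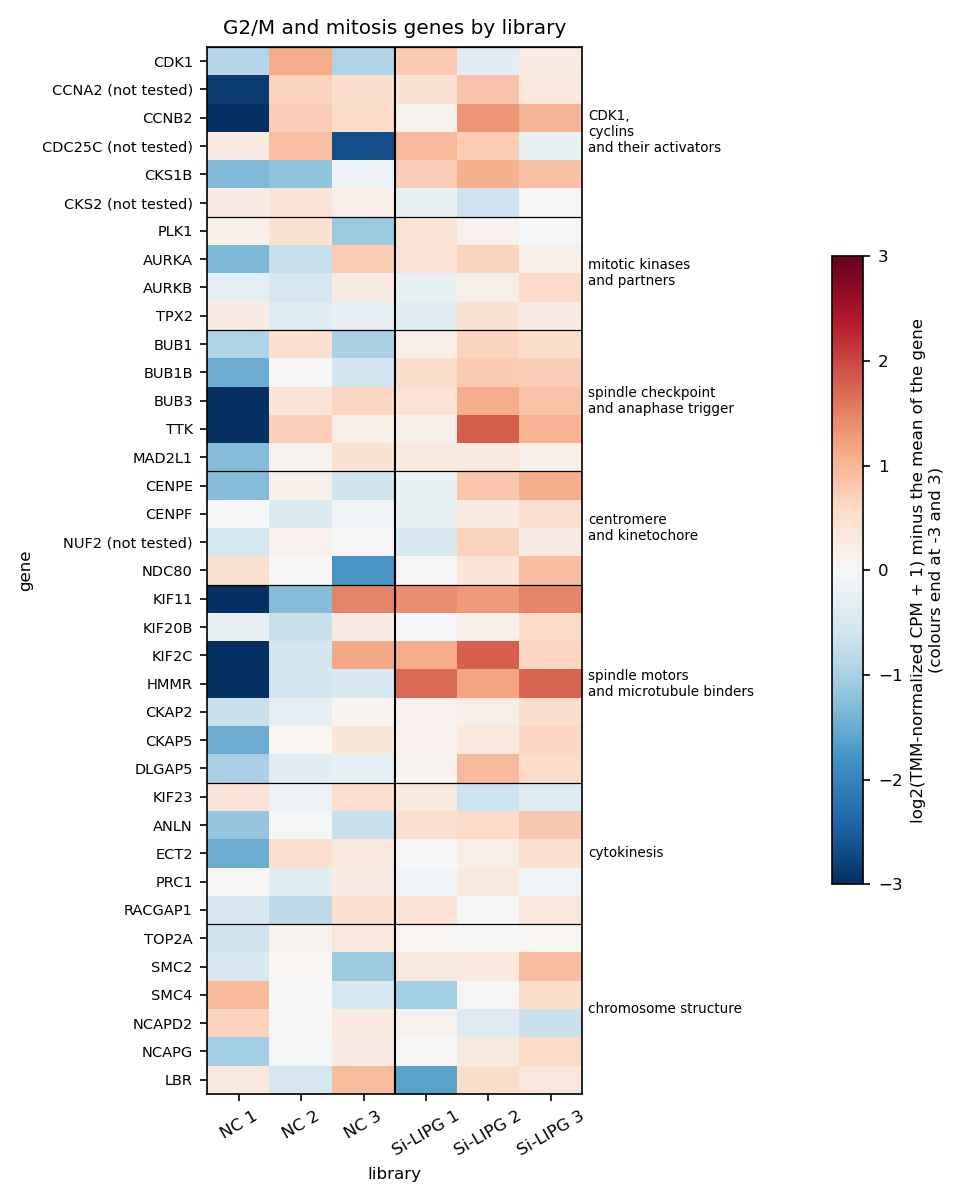
The log2(TMM-normalized CPM + 1) of the 37 genes found (rows, by role) in each library (columns) minus the mean of the gene, with red above and blue below the mean. The darkest blue cells are the counts of 0 in NC 1 and NC 3 and the low BUB3 value of NC 1, and no Si-LIPG library has a count of 0.

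HMMR (ENSCHIG00000026654), the hyaluronan-mediated motility receptor, which binds spindle microtubules in mitosis, had the highest fold change of the members. Its counts were 0, 4 and 5 in NC 1, NC 2 and NC 3, against 34, 33 and 55 in Si-LIPG 1, 2 and 3, or 0, 7.2 and 7.88 CPM against 38.4, 26.9 and 40.2 CPM after TMM normalization. The groups did not overlap, with the lowest Si-LIPG library well above the highest NC library. Its log2 fold change was 2.60 (SE 0.76, 95% interval 0.99 to 4.21, adjusted p = 0.0523 by edgeR). HMMR passed the filter through its Si-LIPG libraries alone, as did DLGAP5, and a gene kept in that way had to differ between the groups. With 1 library left out, the adjusted p of HMMR ranged from 0.0641 to 0.267.

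ANLN (ENSCHIG00000017068), the gene of anillin, a scaffold of the contractile ring, had the highest mean count of the members. Its counts were 21, 82 and 61 in the NC libraries, against 188, 280 and 368 in the Si-LIPG libraries. TMM-normalized values were 68.1, 148 and 96.1 CPM against 212, 228 and 269 CPM. The groups did not overlap, and the values of the Si-LIPG libraries were close to each other. For ANLN the log2 fold change was 1.17 (SE 0.34, 95% interval 0.44 to 1.90, adjusted p = 0.0552 by edgeR). ANLN also met the criterion whichever library was left out, with an adjusted p from 0.0594 to 0.28.

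CKS1B (ENSCHIG00000012535), a small subunit that binds cyclin-dependent kinases, had counts of 2, 4 and 10 in the NC libraries, against 27, 47 and 46 in the Si-LIPG libraries. Its TMM-normalized values were 6.48, 7.2 and 15.8 CPM against 30.5, 38.3 and 33.6 CPM, without overlap. Its log2 fold change was 1.72 (SE 0.63, 95% interval 0.38 to 3.06, adjusted p = 0.119 by edgeR), and it did not meet the criterion without Si-LIPG 2 (adjusted p = 0.419). CKS2, a paralog of similar sequence from which reads could be divided by the counting, had 3, 6 and 6 reads in the NC libraries, against 6, 6 and 11 in the Si-LIPG libraries. CKS2 was not tested, and its TMM-normalized mean was 10 ± 0.715 CPM in the NC groups and 6.56 ± 1.58 CPM in the Si-LIPG groups (SD, n = 3).

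BUB1B (ENSCHIG00000016057), the checkpoint protein BubR1, which holds back the anaphase-promoting complex, had counts of 4, 21 and 16 in the NC libraries, against 50, 82 and 88 in the Si-LIPG libraries. In TMM-normalized CPM these were 13, 37.8 and 25.2 against 56.4, 66.8 and 64.3. The groups did not overlap. With a log2 fold change of 1.25 (SE 0.46, 95% interval 0.27 to 2.23, adjusted p = 0.121 by edgeR), BUB1B met the criterion in all 6 libraries but not without Si-LIPG 2 (adjusted p = 0.391). CENPE (ENSCHIG00000018049), a kinesin that moves chromosomes to the spindle equator, had 13, 37.8 and 22.1 CPM in the NC libraries, against 29.3, 61.1 and 73 CPM in the Si-LIPG libraries after TMM normalization. Its groups overlapped, since NC 2 was above Si-LIPG 1. CENPE was at the edge of the criterion (log2 fold change 1.12, SE 0.52, adjusted p = 0.236 by edgeR) and did not meet it without NC 1, NC 3, Si-LIPG 2 or Si-LIPG 3, with an adjusted p of up to 0.663.

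**Figure D4:**
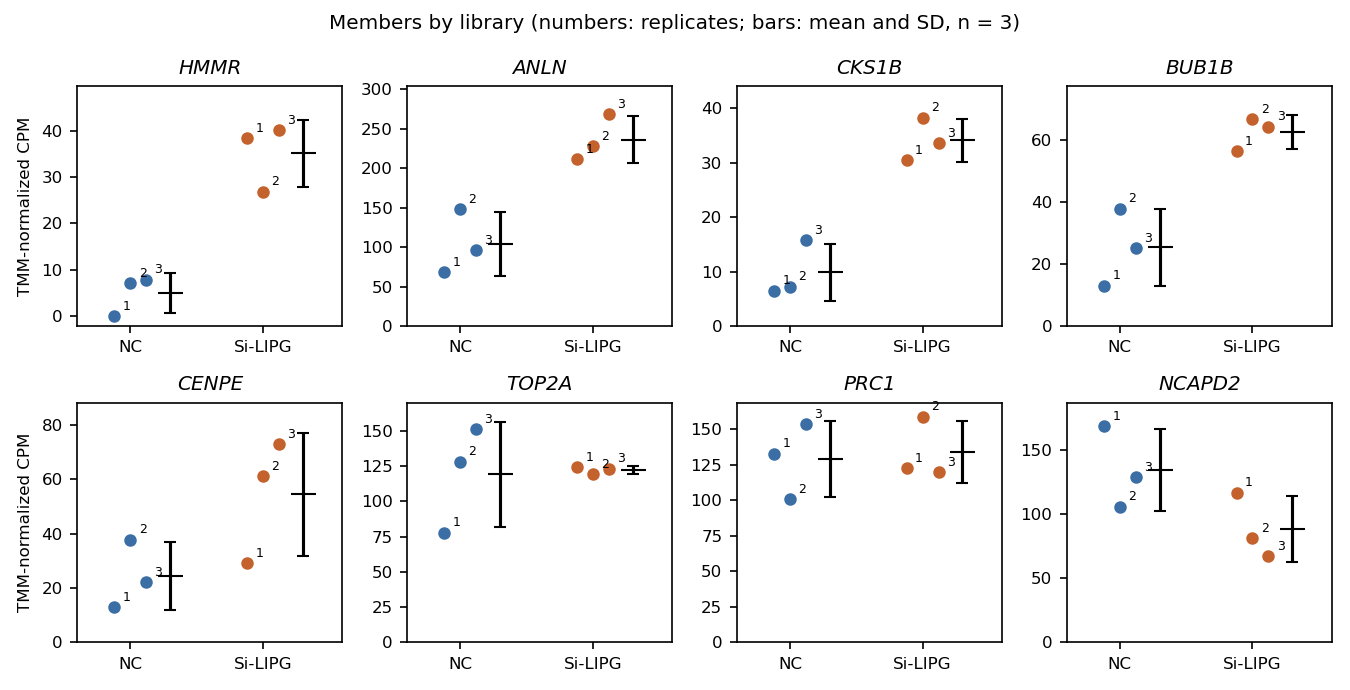
TMM-normalized CPM (vertical axis) of 8 members in the NC (blue) and Si-LIPG (orange) libraries, with the replicate number at each point and the mean and SD (n = 3) as bars. HMMR, ANLN, CKS1B and BUB1B do not overlap between the groups, CENPE, TOP2A, PRC1 and NCAPD2 do, and TOP2A has nearly equal means.

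Of CDK1, the cyclins and their activators, 3 of the 6 genes found were tested, and their log2 fold changes were positive (0.15 to 1.72). CDK1, the kinase that drives entry into mitosis, was read 2, 16 and 4 times in the NC libraries, against 20, 12 and 21 times in the Si-LIPG libraries. NC 2 had the highest TMM-normalized value of CDK1 (28.8 CPM) and NC 3 the lowest (6.3 CPM), so that the NC groups spanned the Si-LIPG groups. Its log2 fold change of 0.15 had a 95% interval from -1.59 to 1.88, which at this depth leaves a change in either direction possible. CCNB2, a B-type cyclin, had 0, 12 and 12 reads in the NC libraries, against 12, 40 and 36 in the Si-LIPG libraries (log2 fold change 0.73, SE 0.79). CCNA2, cyclin A2, had 0, 6 and 6 reads against 8, 15 and 11, and CDC25C, the phosphatase that activates CDK1, had 2, 6 and 0 against 10, 12 and 6. CCNA2 and CDC25C were too low to be tested, and their values overlapped after TMM normalization.

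The 4 mitotic kinases and partners found (PLK1, AURKA, AURKB and the Aurora A activator TPX2) were tested, had log2 fold changes between 0.22 and 0.53 and did not meet the criterion. PLK1, the Polo-like kinase of mitotic entry and spindle assembly, had 58.4, 72 and 23.6 CPM in the NC libraries, against 70, 57 and 50.4 CPM in the Si-LIPG libraries after TMM normalization. NC 2 was the highest and NC 3 the lowest library for PLK1, and the groups overlapped. AURKA had 6.48, 10.8 and 31.5 CPM against 24.8, 29.3 and 20.5 CPM, with NC 3 above all Si-LIPG libraries.

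The 5 spindle checkpoint genes found had positive log2 fold changes with a median of 0.79, and BUB1B alone met the criterion. TTK, the kinase that starts checkpoint signalling, had 0, 13 and 10 reads in the NC libraries, against 14, 64 and 41 in the Si-LIPG libraries, and its log2 fold change was 1.21 (SE 0.77, adjusted p = 0.412 by edgeR). BUB3, which brings BUB1 and BUB1B to kinetochores, had 1 read in NC 1 but 32 and 44 in NC 2 and 3, beside 53, 115 and 109 in the Si-LIPG libraries. NC 3 (69.3 CPM) was above Si-LIPG 1 (59.8 CPM) after TMM normalization. MAD2L1, the MAD2 protein of the checkpoint complex, had 13, 36 and 45.7 CPM against 40.6, 40.7 and 37.3 CPM, and its Si-LIPG libraries lay within the NC range.

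At the centromere and kinetochore, CENPE, CENPF and the microtubule-binding subunit gene NDC80 were tested, with log2 fold changes between 0.41 and 1.12. CENPF, a large kinetochore and nuclear matrix protein, had 84.3, 64.8 and 83.5 CPM in the NC libraries, against 75.6, 108 and 124 CPM in the Si-LIPG libraries. CENPF had a log2 fold change of 0.41 (95% interval -0.34 to 1.16, adjusted p = 0.573 by edgeR). NUF2, the partner of NDC80, had 2, 6 and 6 reads against 6, 20 and 16 and was not tested.

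The 7 spindle motors and microtubule binders had positive log2 fold changes (0.43 to 2.60), and HMMR alone met the criterion. The range includes HMMR and DLGAP5, which passed the filter only through the Si-LIPG libraries. KIF11, the Eg5 motor that pushes spindle poles apart, had 0, 4 and 35 reads in the NC libraries, against 46, 59 and 74 in the Si-LIPG libraries. In TMM-normalized CPM, NC 3 (55.2) was above all 3 Si-LIPG libraries (51.9, 48.1 and 54.1), whereas NC 1 and NC 2 were far below them (0 and 7.2). The log2 fold change of KIF11 was 1.16 (SE 0.74, adjusted p = 0.411 by edgeR), and without NC 3 it was the one member with an adjusted p under 0.05, among 525 of the 7708 genes then tested. Without NC 3, however, KIF11 passed the filter only through its Si-LIPG libraries, so that a difference between the groups was fixed by the filter. KIF2C, a kinesin that depolymerizes microtubules, had 0, 10.8 and 37.8 CPM against 37.2, 60.3 and 26.3 CPM. CKAP2, a spindle microtubule stabilizer with a high count, had 34, 80 and 117 reads against 170, 245 and 343, and its TMM-normalized values did not overlap (highest NC library 184 CPM, lowest Si-LIPG library 192 CPM). CKAP2 had a log2 fold change of 0.54 (95% interval -0.14 to 1.22, adjusted p = 0.371 by edgeR). CKAP5, a microtubule polymerase, had 51.9, 153 and 189 CPM against 160, 183 and 226 CPM, with NC 1 apart from the other 5 libraries and a log2 fold change of 0.50 (95% interval -0.34 to 1.35).

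Among the 5 cytokinesis genes, which were all tested, ANLN stood apart from the others, whose log2 fold changes lay between -0.46 and 0.40. PRC1, which bundles the microtubules of the spindle midzone, had 133, 101 and 154 CPM in the NC libraries, against 123, 159 and 120 CPM in the Si-LIPG libraries. The groups overlapped throughout, and the log2 fold change of PRC1 was 0.05 (95% interval -0.64 to 0.74, adjusted p = 0.955 by edgeR). RACGAP1, a subunit of the centralspindlin complex, had 77.8, 61.2 and 148 CPM against 142, 108 and 134 CPM, with a log2 fold change of 0.40 (SE 0.37, adjusted p = 0.612 by edgeR). KIF23, the motor subunit of the same complex, had 130, 86.5 and 139 CPM against 120, 63.6 and 75.2 CPM and a log2 fold change of -0.46 (SE 0.37, adjusted p = 0.534 by edgeR). The means of these partners therefore lay on opposite sides of 0, each with an interval that includes 0, and the difference between them was not tested.

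The 6 chromosome structure genes found had a median log2 fold change of -0.12 (range -0.60 to 1.02), with 3 above and 3 below 0. TOP2A, the topoisomerase that disentangles sister chromatids, had 77.8, 128 and 151 CPM in the NC libraries, against 124, 119 and 123 CPM in the Si-LIPG libraries. The Si-LIPG values lay within the range of the NC values, and the log2 fold change of TOP2A was 0.02 (95% interval -0.70 to 0.73, adjusted p = 0.985 by edgeR). NCAPD2, a regulatory subunit of condensin I, had 169, 106 and 129 CPM against 117, 81.5 and 67.2 CPM, with an overlap between NC 2 and Si-LIPG 1. Its log2 fold change was -0.60 after TMM normalization (95% interval -1.35 to 0.15, adjusted p = 0.367 by edgeR) but 0.83 on the scale of all reads. SMC2, the ATPase subunit common to both condensins, had 19.5, 28.8 and 12.6 CPM against 33.8, 35 and 54.1 CPM, without overlap, and a log2 fold change of 1.02 (SE 0.53, adjusted p = 0.305 by edgeR). Its partner SMC4 had 146, 73.9 and 50.4 CPM against 35, 75 and 108 CPM, with the highest value in NC 1 and the lowest in Si-LIPG 1.

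The TMM-normalized values of 7 of the 33 tested members were higher in every Si-LIPG library than in every NC library (HMMR, ANLN, CKS1B, BUB1B, SMC2, CKAP2 and DLGAP5, a spindle assembly factor), or 21.2%, beside 15.2% of all tested genes. HMMR and DLGAP5 were kept by the filter only through the Si-LIPG libraries, and among genes past the CPM minimum in at least 1 library of each group the counts were 5 of 31 members (16.1%) and 12.3% of all tested genes. None of the 33 was lower without overlap, beside 13.4% of all tested genes. CKS2, which was not tested, was lower without overlap (9.73, 10.8 and 9.46 CPM against 6.77, 4.89 and 8.03 CPM). In CPM of all reads its mean was instead higher in the Si-LIPG groups (0.196 against 0.109), and the groups overlapped. When counts were scaled to all reads, 26 members (78.8%) and 51.9% of all tested genes were higher without overlap.

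The level of the members was compared in FPKM, which accounts for gene length. The mean over the 6 libraries was highest for CKS1B (102 FPKM), followed by PRC1 (70.8), CKAP2 (60.6), BUB3 (60.2) and MAD2L1 (60.2), and lowest for HMMR (5.03), ECT2 (4.87), a RhoA activator in cytokinesis, CDC25C (4.64) and the lamin B receptor gene LBR (4.3). The place of CKS1B rests on the Si-LIPG groups (171 ± 36.1 FPKM, SD, n = 3), because in the NC groups it had 34.3 ± 22.4 FPKM and PRC1 55.5 ± 17.1. The low end also depends on the group, since HMMR was at 0.996 ± 0.864 FPKM in the NC groups, below LBR (3.87 ± 2.39), and at 9.07 ± 2.08 FPKM in the Si-LIPG groups, above LBR (4.73 ± 3.18). CKAP2, BUB3 and MAD2L1 did not differ beyond their spread, with means of 38.8 ± 16.6, 35.4 ± 29.5 and 44.3 ± 28.4 FPKM in the NC groups (SD, n = 3). CDK1 itself was at 9.28 ± 9.75 FPKM in the NC groups and 14.2 ± 4.33 FPKM in the Si-LIPG groups. CKS1B and CKS2 are also the shortest members, with 240 bases of counted length each, so that few reads give a high FPKM.

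Many counts were low, and low counts of the members were mostly even (69 of 85 counts between 2 and 21, or 81.2%, beside 69.4% to 74.5% of all counts of that size in a library). If reads were counted in pairs, fewer molecules stand behind a count than its value, and this was not tested. By the goat gene table of RefSeq (assembly ARS1.2), 5 of the genes found overlap another gene, and the strand setting of the counting is not given in the sources used here. The 13 tested members with a gene that overlaps them or lies within 1 kb had a median log2 fold change of 0.47, and the 20 without one had 0.64. HMMR and CKS1B are among the 13 (neighbours NUDCD2 and SHC1), whereas ANLN, BUB1B and CENPE are not.

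Other genes of the cell cycle were taken from 7 lists of 125 genes, of which 71 were tested. They had a median log2 fold change of 0.30, and 45 of the 71 values were positive, beside 58.4% of all tested genes. The criterion was met by 3 of the 71 as higher and by 6 as lower, in each direction a smaller share than the 7.83% and 12.9% of all tested genes. The kinetochore and chromosomal passenger list, with 10 genes tested, held CENPC and KNL1, both higher. CENPC, which anchors the kinetochore to centromeric chromatin, had 0, 2 and 3 reads in the NC libraries, against 28, 14 and 56 in the Si-LIPG libraries (adjusted p = 0.0578 by edgeR). KNL1, the scaffold that recruits BUB1 and BUB1B, had 2, 2 and 8 against 33, 36 and 22 reads (log2 fold change 1.80, SE 0.75, adjusted p = 0.178 by edgeR). Both genes passed the filter only through their Si-LIPG libraries, so that a difference between the groups was fixed by the filter.

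Of the anaphase-promoting complex, 12 genes were tested (median log2 fold change -0.35), and ANAPC2, its cullin subunit, fell. ANAPC2 had 214, 212 and 212 reads in the NC libraries, against 211, 146 and 86 in the Si-LIPG libraries, and its log2 fold change was -1.75 after TMM normalization (SE 0.45, adjusted p = 0.04 by edgeR), -0.35 scaled to all reads and 0.04 when the share of counted reads entered the fit as a covariate. In the list of G2 checkpoint and mitotic entry control, with 14 genes tested, PKMYT1, a kinase that inhibits CDK1, had a log2 fold change of -1.56 (SE 0.45, adjusted p = 0.0501 by edgeR) and GADD45G, a stress-induced inhibitor of CDK1, of -2.55 (SE 0.73, adjusted p = 0.0506). PPP2R2A, a regulatory subunit of the phosphatase PP2A, had 1.14 (SE 0.54, adjusted p = 0.241 by edgeR). PKMYT1 counts were 261, 256 and 255 in the NC libraries, against 303, 125 and 188 in the Si-LIPG libraries, and its log2 fold change was -0.16 when scaled to all reads.

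Outside G2 and mitosis, the list of G1 cyclins, kinases and inhibitors (9 tested, median log2 fold change 0.56) held CCNH (adjusted p = 0.12 by edgeR) and CDKN2B (log2 fold change -1.03, adjusted p = 0.17) as lower at the criterion. The RB, E2F and DREAM list (11 tested, median 0.43) held RBL2, the pocket protein p130 of the DREAM complex, with -1.15 (adjusted p = 0.0909 by edgeR). All of these were positive when counts were scaled to all reads (CCNH 0.45, CDKN2B 0.53 and RBL2 0.40 on the log2 scale). The cohesin list (11 tested, median 0.19) and the other condensin subunits (4 tested, median -0.03) held no gene at the criterion.

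Marker genes were summed in FPKM, a scale on which the median of all tested genes was itself higher in the Si-LIPG groups (by 0.76 on the log2(FPKM + 1) scale), and the part of other cells in the results was not tested. The 12 of 14 mesenchymal markers found summed to 3350 to 7060 FPKM in the NC groups and 9980 to 10700 FPKM in the Si-LIPG groups. The mesenchymal sum is mostly COL1A1, COL1A2 and VIM, so that it says little about the other markers. The 7 of 8 myogenic markers found summed to 46.5 to 74.2 FPKM in the NC groups and 82.4 to 94.4 FPKM in the Si-LIPG groups. The sum of 5 smooth muscle and pericyte markers ranged from 2710 to 5420 and from 6170 to 6640, with RGS5 at 0 in every library. That sum is mostly ACTA2 and TAGLN, whereas MYH11, smooth muscle myosin, had 296, 204 and 201 FPKM against 171, 116 and 115 FPKM and fell after TMM normalization (log2 fold change -1.44, adjusted p = 0.0485 by edgeR), but was at 0.09 on the scale of all reads. After TMM normalization the median log2 fold change was 0.29 for the 10 mesenchymal markers tested, 0.01 for the 3 myogenic and 0.08 for the 4 smooth muscle and pericyte markers. Of the 10 mesenchymal markers, 8 were higher, LUM rose (1.71, adjusted p = 0.0395 by edgeR) and DCN met the criterion as higher (0.87, adjusted p = 0.228 by edgeR). The groups overlapped for DCN, and with the share covariate its log2 fold change was -0.21, beside 1.03 for LUM. ENG met the criterion as lower without overlap (-1.07, adjusted p = 0.0844 by edgeR). It was at 0.44 on the scale of all reads and -0.02 with the share covariate. The sums of 8 adipocyte markers (10.1 to 45.8 and 20.1 to 47.9 FPKM), 5 immune markers (12.8 to 28.8 and 13.1 to 17.3 FPKM) and 5 endothelial markers (0 to 2.87 and 0 to 2.75 FPKM) overlapped between the groups, with PTPRC, CD3E, CDH5, KDR and TEK at 0.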

How the data were processed

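Poly(A) RNA of 3 NC and 3 Si-LIPG libraries, assigned by sample title, was sequenced with dUTP strand marking. The authors deposited raw counts of reads for 27271 genes, 1 file for each library, and a table of FPKM values with gene names for these genes. The submitters' processing notes name fastp, HISAT2, SAMtools and HTSeq, and the genome build, annotation and strand setting are not given in the sources used here. In each library 5 rows that name no gene (97.1% to 99% of reads) were not tested and entered the library sizes only in the scaling to all reads, and the covariate below rests on their share.

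The main test ran on counts with edgeR 4.0.16 under R 4.3.3 (filterByExpr by group, which asked for 12.8 CPM in 3 libraries, TMM, quasi-likelihood test, no covariate, Benjamini-Hochberg adjustment over 6574 genes) and alternatives with limma 3.58.1 and DESeq2 1.42.0. Tables and figures used pandas 2.3.3 and matplotlib 3.10.9. The criterion asked for a fold change over 1.5 with an unadjusted p under 0.05. Members at the criterion or with an adjusted p under 0.05, and the 8 with the highest mean count, were named with full values; untested members were given by their counts, and other members were added as examples of their role after their values were seen. From each other list at most 3 genes at the criterion were named. Members and lists were chosen with earlier results of these data known. The procedures were tested on simulated data. Counting limits cover counting error only. Neighbouring genes were looked up in RefSeq's gene table of ARS1.2, which held the names of all 37 members found; its coordinates were not used with the files, and no sequences are shown.

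The alternatives changed the scaling (upper quartile factors, DESeq2 size factors, only library sizes, all reads), the tool (DESeq2, or limma on log2(FPKM + 0.1) and on log2(FPKM + 1)), the low count filter (none, or at least 10 counts in all 6 libraries), the design (a replicate block, or the percentage of reads counted on genes as covariate), the fold threshold and the libraries, leaving out each in turn. A length correction, and the counts over genes past the CPM minimum in both groups, were chosen after seeing the data.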

Additional observations from a re-analysis of the deposited data

How the results depend on the processing

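The number of members at the criterion (5) was 18 when only library sizes were used (24.2% of all tested genes higher at it), 24 when scaled to all reads (46.1%), 2 of the 14 members left when every library needed at least 10 counts (14.9%), 9 with the replicate block (10.4%), 0 with the percentage of reads on genes as covariate (1.08%) and 10 with limma on log2(FPKM + 1) (23%). It lay between 2 (without Si-LIPG replicate 2, 3.49% of all tested genes) and 7 (without NC replicate 2 or 3, 9.28% and 9.87%) when 1 library was left out. NCAPD2 met it as lower without Si-LIPG replicate 1 (-0.89) and with the length correction (-0.83), and the other members at it were higher. Over all tested genes, 515 higher and 846 lower at the criterion became 1588 and 395 with library sizes alone and 3030 and 2 when scaled to all reads, and DESeq2 gave 629 and 1064 among 14848 genes. The paper states 1064 genes as upregulated at this criterion and fewer as downregulated. This bears on the doubt about the sample titles, on which each printed direction rests. The number with an adjusted p under 0.05 (0, beside 428 of all 6574 genes in both directions) was 2 with library sizes alone (123 of all), 1 with upper quartile factors (469), 5 when scaled to all reads (750), 2 with DESeq2 (595), 2 without the filter (623 of 14848), 1 when every library needed at least 10 counts (714 of 2757) and 2 with the replicate block (925), and 0 to 1 when 1 library was left out (KIF11 without NC replicate 3). HMMR or ANLN was among the calls in each of the other cases. Without NC replicate 3, KIF11 passed the filter only through its Si-LIPG libraries. The labels do not say whether equal replicate numbers mark paired samples. The deviations of same-numbered libraries correlated by 0.21, 0.0639 and 0.105, and those of the other pairs by -0.154 to 0.091. NC 1 and NC 3 correlated best with the Si-LIPG library of the same number, and NC 2 with Si-LIPG 3 (0.089). Whether the samples are paired therefore stays unknown.

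The median difference from all tested genes (0.34) stayed positive under all alternatives run, from 0.01 with the share covariate to 0.49 when every library needed at least 10 counts. The share covariate turned the log2 fold change to -0.39 for CENPE, -0.18 for CENPF, -0.37 for CKAP5, 0.23 for NCAPD2, -0.0615 for PRC1 and -0.25 for TOP2A. NCAPD2 was at 0.000327 with library sizes alone and 0.83 when scaled to all reads. TOP2A was at -0.0202 with DESeq2 size factors. The length correction gave -0.058 for PRC1 and -0.18 for TOP2A. Leaving out 1 library gave -0.10 to 0.21 for PRC1 and -0.22 to 0.23 for TOP2A. The cause of these changes was not tested. Of the other values of the 12 named members under these alternatives, 166 kept their direction and their side of the criterion, 14 lost it and 17 gained it. Depth is a further limit, since 19 of the 33 tested were under the CPM minimum in at least 1 NC library.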

Other observations

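A row without a gene symbol carries the name of a goat RefSeq protein that the RefSeq table assigns to TACC3, a spindle protein on the list of 48 genes. It lies outside the rule by which the members were found, and it was not tested. Its counts were 2, 0 and 7 in NC 1, NC 2 and NC 3, against 4, 11 and 20 in Si-LIPG 1, 2 and 3. The groups overlapped after TMM normalization, since NC 3 (11 CPM) was above Si-LIPG 1 (4.51 CPM) and Si-LIPG 2 (8.96 CPM).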
